A study of Rattus norvegicus with 30 samples.

Results

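Hearts given the stimulus of ischaemic preconditioning (IPC_TRI, 5 arrays) were compared with hearts given the stimulus of anaesthetic preconditioning (APC_TRI, 5 arrays), with no test ischaemia afterwards in either group. These are 10 of the 30 Affymetrix arrays of a study of rat left ventricle, chosen by the trigger named in the title of each sample. The other groups, also of 5 biological replicates each, were control hearts (CTL), hearts with ischaemia and no preconditioning (ISCH), and hearts taken through the whole ischaemic (IPC) or anaesthetic (APC) preconditioning protocol. CTL serves below as the untreated reference, and IPC against APC as the matching comparison of the full protocols. The labels give no strain, sex, age, genotype, anaesthetic, dose or time for any group, and total RNA of the ventricle was measured in all of them.

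Preconditioning is the protection of the heart by a brief, sublethal stimulus against the damage of a later long ischaemia. Short periods of ischaemia and volatile anaesthetics can both act as that stimulus, and both are known to work through receptors coupled to G proteins, protein kinases, potassium channels sensitive to ATP and the mitochondria of the heart muscle cell. A comparison of the stimuli on their own asks how the messenger RNA of the heart differs between them before any damaging ischaemia.

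Signals below are quantile-normalised and on a linear scale, and a difference is that of log2(signal + 16), IPC_TRI minus APC_TRI, given ± its standard error over groups of n = 5. The added 16 makes a difference smaller for dim probe sets. A probe set is the group of probes that stands for 1 transcript on the array. Adjusted p-values are from limma with Benjamini-Hochberg adjustment over all 5244 probe sets tested, and "called" means an adjusted p under 0.05. Genes are counted by their brightest probe set that carries 1 gene symbol, which gave 3155 genes.

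Few transcripts were called between the hearts of the trigger groups. Of the 5244 probe sets 23 were called (0.439%), 9 of them higher in IPC_TRI (0.172%) and 14 lower (0.267%). Of the 3155 genes 11 were called (0.349%), 4 higher (0.127%) and 7 lower (0.222%). Scd2, Lct, Pnmt, Zc3hc1, Tnfsf13, Gata6 and Prkaca were lower after the ischaemic trigger, and Areg, Nme6, Uck2 and Fdx1 were higher. The 5 and 5 arrays did not overlap for 90 probe sets (1.72%), with IPC_TRI above in 44 (0.839%) and below in 46 (0.877%), and 16 of the 23 called sets were among them. An unadjusted limma p under 0.05 was reached by 771 probe sets, and by 457 of the 3155 genes (14.5%). The 771 rests on a spread pooled over all groups of the study. It became 398 with the trigger arrays alone and 510 in a fit that gave scattered arrays less say. The small count of calls does not by itself show that few transcripts differed, and the unadjusted counts do not settle how many did. The median difference over the genes was -0.02, and the unadjusted 95% interval of a typical probe set reached 0.51 to either side. With 5 arrays per group a call after adjustment needed a larger difference than this at a typical spread. Differences such as 1.20 for Fabp4 and -1.30 for Ptger3 were not called.

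These calls rest on a spread estimated over all 30 arrays. With a fit of the 10 trigger arrays alone 0 probe sets were called, while 398 had an unadjusted p under 0.05, and the smallest adjusted p among the 23 was 0.09. The IPC_TRI arrays were less alike than the APC_TRI arrays. The mean correlation of an array with the others of its group was 0.898 ± 0.0168 (SD, n = 5) in IPC_TRI and 0.946 ± 0.0040 in APC_TRI (2-sided exact permutation test, p = 0.0079, the smallest possible with 5 against 5, and 0.048 after adjustment over 6 quality measures). The 5 values of a group share pairs of arrays and are not independent, so this p is not that of 5 against 5 independent arrays. The median SD of a probe set's log2 signal was 0.523 in IPC_TRI, 0.305 in APC_TRI and 0.255 in CTL. With arrays centred on their medians in place of quantile normalisation 41 probe sets were called, 5 higher and 36 lower, and with the values as deposited 16, 9 higher and 7 lower. With array weights, which give scattered arrays less say, 13 probe sets were called, 9 of them among the 23. In that fit 510 probe sets had an unadjusted p under 0.05. The lowest weights among the trigger arrays were 0.164, 0.300 and 0.344, for IPC_TRI 5, 2 and 1. Of all 30 arrays IPC_TRI 5 had the lowest mean correlation within its group (0.872) and the highest median of the deposited signals (189). Leaving out 1 array moved the count between 8 (without APC_TRI 4) and 89 (without IPC_TRI 3), and without IPC_TRI 1, 2, 4 and 5 it was 39, 35, 49 and 80.

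**Figure D1:**
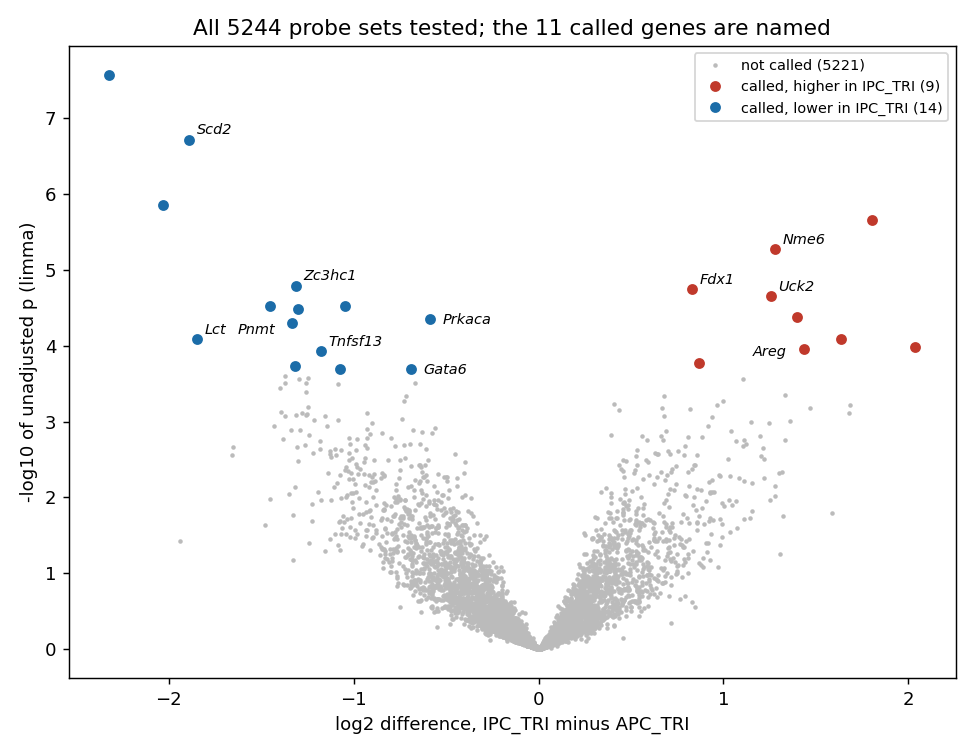
Each point is 1 of the 5244 probe sets tested, with the log2 difference IPC_TRI minus APC_TRI on the x axis and -log10 of the unadjusted limma p on the y axis. Red and blue points are the 9 probe sets called higher and the 14 called lower in IPC_TRI; most of the grey points lie within 1 log2 unit of 0.

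The largest called difference among the genes was that of Scd2, which encodes a stearoyl-CoA desaturase, an enzyme that makes monounsaturated fatty acids. Its signals on IPC_TRI arrays 1 to 5 were 274, 32.3, 68.3, 65.6 and 93.1, and on APC_TRI arrays 1 to 5 they were 347, 309, 333, 509 and 323. The groups did not overlap, although IPC_TRI 1 lay far above the other 4 arrays of its group. The mean was 107 ± 95.9 (SD, n = 5) in IPC_TRI and 364 ± 82.0 in APC_TRI, a log2 difference of -1.89 ± 0.28 with a 95% interval from -2.46 to -1.31 (adjusted p = 0.00051), or 3.7-fold lower. The call held without each of the 10 trigger arrays in turn, with differences from -2.28 to -1.63. With array weights the calls of Scd2 and Uck2 were kept, and those of the other 9 genes ended, with adjusted p-values from just over 0.05 for Nme6 and Zc3hc1 to 0.34 for Gata6. With the values as deposited the calls of Pnmt, Lct, Tnfsf13 and Gata6 ended, at 0.066 to 0.069.

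Pnmt encodes the enzyme that converts noradrenaline to adrenaline. It was measured at 139, 74.2, 156, 175 and 127 on the IPC_TRI arrays and at 329, 353, 429, 322 and 333 on the APC_TRI arrays. Every IPC_TRI array was below every APC_TRI array, and the difference was -1.34 ± 0.28 (adjusted p = 0.019). Without APC_TRI 3, APC_TRI 4 or IPC_TRI 2 the adjusted p of Pnmt was 0.064, 0.059 and 0.051. Lct, the gene of the intestinal milk sugar enzyme lactase, had signals of 95.3, 60.9, 95, 68.2 and 26.9 in IPC_TRI and 195, 237, 338, 332 and 299 in APC_TRI. These groups did not overlap either, with a difference of -1.85 ± 0.41 (adjusted p = 0.027; 0.066 without APC_TRI 3 and 0.1 without APC_TRI 4).

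Prkaca encodes a catalytic subunit of protein kinase A, the kinase activated by cyclic AMP. Its signals were 3100, 3060, 3780, 2710 and 4030 in IPC_TRI and 5600, 4840, 4300, 5970 and 4350 in APC_TRI. The arrays did not overlap, and the difference of -0.59 ± 0.12 (adjusted p = 0.018) was the smallest among the called genes. Its adjusted p was 0.063 without APC_TRI 1 and 0.1 without APC_TRI 4. Gata6, a transcription factor of heart development, was measured at 654, 732, 1500, 1240 and 1010 in IPC_TRI and at 1640, 1680, 1520, 1620 and 1510 in APC_TRI. The highest IPC_TRI array lay just under the lowest APC_TRI array, and the difference was -0.69 ± 0.16 (adjusted p = 0.047). That call of Gata6 ended in 7 of the 10 fits that left out 1 trigger array: those without any 1 of the 5 APC_TRI arrays, without IPC_TRI 1 and without IPC_TRI 2, with an adjusted p of up to 0.11.

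Zc3hc1, which encodes a nuclear zinc finger protein, had signals of 150, 61.8, 152, 52.0 and 47.0 in IPC_TRI and 296, 331, 185, 209 and 163 in APC_TRI. It was lower on every IPC_TRI array, by -1.31 ± 0.26 on the log2 scale (adjusted p = 0.013), and stayed called without each trigger array in turn, though not with array weights. Tnfsf13 encodes APRIL, a ligand of the tumour necrosis factor family that acts on B cells. Its signals were 124, 154, 414, 197 and 244 in IPC_TRI and 290, 565, 487, 828 and 423 in APC_TRI. The highest IPC_TRI array overlapped the APC_TRI range, and the difference was -1.18 ± 0.27 (adjusted p = 0.033). Without APC_TRI 2, 3 or 4 or IPC_TRI 1 or 2 the call of Tnfsf13 ended, with an adjusted p of up to 0.13.

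Among the genes that were higher after the ischaemic trigger, Areg encodes amphiregulin, a ligand of the epidermal growth factor receptor. It was measured at 190, 149, 129, 151 and 181 in IPC_TRI and at 19.2, 37.1, 105, 24.1 and 108 in APC_TRI. The lowest IPC_TRI array was above the highest APC_TRI array, and the difference was 1.43 ± 0.32 (adjusted p = 0.032), or 2.7-fold. The APC_TRI signals fell into a dim set of 3 arrays and a pair near 105, and the call of Areg ended without APC_TRI 1, 2 or 4 or IPC_TRI 1, with an adjusted p of up to 0.12.

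Uck2, a kinase of uridine and cytidine in the salvage of pyrimidines, had signals of 579, 483, 653, 601 and 440 in IPC_TRI and 206, 154, 175, 214 and 412 in APC_TRI. The groups did not overlap, and the difference was 1.26 ± 0.25 (adjusted p = 0.015). Nme6, of the nucleoside diphosphate kinase family, was measured at 286, 350, 435, 242 and 633 in IPC_TRI and at 86.2, 128, 253, 185 and 108 in APC_TRI. Its ranges touched at a single pair of arrays, IPC_TRI 4 and APC_TRI 3, and the difference was 1.28 ± 0.23 (adjusted p = 0.0057). Fdx1 encodes a mitochondrial ferredoxin that passes electrons to cytochrome P450 enzymes. Its signals were 2390, 2430, 1470, 1750 and 1470 in IPC_TRI and 994, 1050, 759, 1040 and 1440 in APC_TRI. They did not overlap, with a difference of 0.83 ± 0.16 (adjusted p = 0.013). The calls of Uck2, Nme6 and Fdx1 held without each trigger array in turn, but those of Nme6 and Fdx1 ended with array weights, and centring the arrays on their medians in place of quantile normalisation brought Fdx1 to 0.62 with an adjusted p of 0.086. Bicd2, the gene above 0 with the next smallest p, differed by 1.10 ± 0.27 (0.054) and was not called. Against CTL it was lower in APC_TRI, by -0.91 ± 0.27 (0.031).

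**Figure D2:**
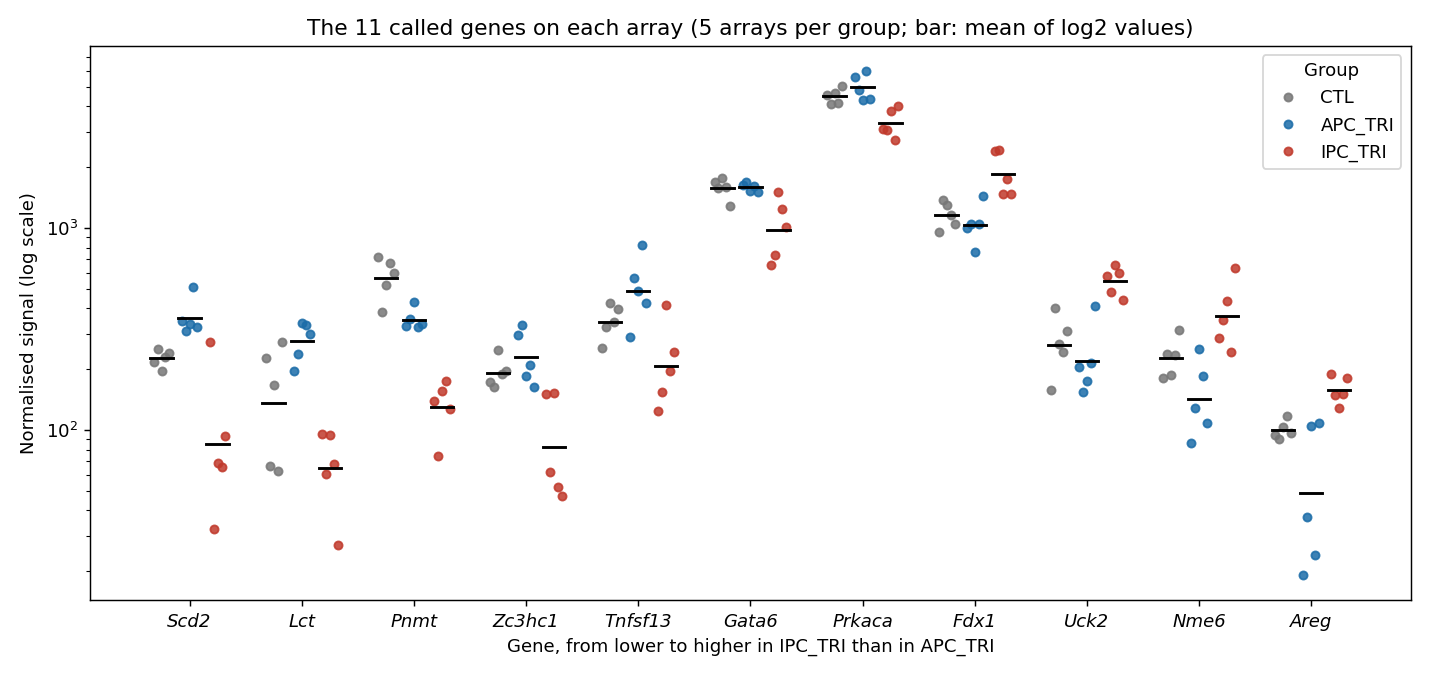
Normalised signal, on a log axis, of the 11 called genes on every CTL, APC_TRI and IPC_TRI array; each point is 1 array and each bar the mean of the log2 values of 5 arrays. For Scd2, Pnmt and Prkaca all red IPC_TRI points lie below all blue APC_TRI points, and for Areg, Uck2 and Fdx1 all lie above.

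Each trigger was also set against control hearts. IPC_TRI differed from CTL in 869 probe sets (16.6%) and APC_TRI in 453 (8.64%). This order turned round in other fits: with the groups of each contrast alone IPC_TRI had 238 calls and APC_TRI 821, and with array weights 394 and 1065. Both comparisons use the same 5 CTL arrays. Of the 23 probe sets called between the triggers, IPC_TRI was also called against CTL in 18 and APC_TRI in 0, and 5 were called in neither. In 20 of the 23 the mean of IPC_TRI lay farther from CTL, and in 21 the means of the triggers lay on opposite sides of CTL. The 23 were chosen on the same trigger arrays, of which those of IPC_TRI are the more scattered, so these counts describe the called sets and test nothing.

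Pnmt and the dimmer set of Pdp2 were the exceptions to the second pattern, since both triggers lay below control hearts. For Pdp2 these differences were -2.46 and -0.43. The CTL signals of Pnmt were 715, 383, 522, 669 and 596, and the difference from CTL was -1.99 ± 0.28 in IPC_TRI (adjusted p = 3.5e-05) and -0.66 ± 0.28 in APC_TRI (adjusted p = 0.14). Gata6 and Prkaca were lower than CTL in IPC_TRI, by -0.67 ± 0.16 (adjusted p = 0.0063) and -0.44 ± 0.12 (0.015), and their APC_TRI means differed from CTL by 0.02 and 0.14 with no call. Scd2 in IPC_TRI was also below CTL, at -1.26 ± 0.28 (0.0035), and its APC_TRI mean lay 0.62 ± 0.28 above CTL without a call (0.16).

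Uck2 and Fdx1 were higher than CTL after the ischaemic trigger, by 1.01 ± 0.25 (adjusted p = 0.0076) and 0.67 ± 0.16 (0.0062). Nme6 passed narrowly, at 0.66 ± 0.23 (0.049). Areg, Tnfsf13 and Lct were called against CTL in neither trigger: for Areg IPC_TRI lay 0.59 ± 0.32 above and APC_TRI -0.85 ± 0.32 from CTL, whose 5 arrays ran from 90.1 to 117. The CTL signals of Lct ranged from 62.5 to 272 and overlapped those of both triggers, which ran from 26.9 to 338. Zc3hc1 was lower than CTL in IPC_TRI, at -1.08 ± 0.26 (0.0055), and not called in APC_TRI, at 0.23 ± 0.26 (0.6).

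Several of the called probe sets stood alone within their gene. Of the 23, 18 carried 1 gene symbol, 3 carried several and 2 were not named here, and 7 of the 18 were not the brightest probe set of their gene. Of the 18 genes, 13 had another tested probe set, 17 such sets in all. None of the 17 was called, by limma at an adjusted p under 0.05, and 14 had the same sign as the called set. For Scd2 the other sets gave 0.12 ± 0.39 and -0.29 ± 0.28, for Fdx1 -0.02 ± 0.30, for Lct -0.00 ± 0.33 and for Prkaca -0.16 ± 0.27. The other set of Nme6 gave 0.51 ± 0.42 and that of Gata6 -0.44 ± 0.41. Areg, Pnmt, Tnfsf13, Uck2 and Zc3hc1 had no other tested set, so for them no such comparison could be made.

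Cyp3a23-3a1, a cytochrome P450 of drug and steroid metabolism, had the largest difference of all on a dim probe set. Signals there were 11.4, 13.4, 49.4, 6.93 and 8.76 in IPC_TRI and 110, 66.5, 167, 218 and 193 in APC_TRI, a difference of -2.32 ± 0.31 (adjusted p = 0.00014). Except on IPC_TRI 3, these IPC_TRI signals lie below the added 16. The brightest set of Cyp3a23-3a1 gave -0.49 ± 0.22 (adjusted p = 0.29). Pdp2, a phosphatase that activates the pyruvate dehydrogenase complex, gave -2.03 ± 0.34 on its dimmer set (0.0024) and -0.68 ± 0.36 on the brightest (0.39). On the dimmer set IPC_TRI ran from 13.4 to 77.4 and APC_TRI from 60.9 to 378, and APC_TRI 3 lay within the IPC_TRI range.

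Psmb4, a subunit of the proteasome, showed the widest split between its probe sets among those called higher. On the called set the signals were 3980, 5570, 4180, 4660 and 5180 in IPC_TRI and 830, 887, 3260, 868 and 864 in APC_TRI, a difference of 2.04 ± 0.46 (adjusted p = 0.032). Only APC_TRI 3 left the narrow band of its group, and 3 of the CTL arrays (2520, 2580 and 2370) lay near it while the other 2 (881 and 865) lay in the band. The remaining Psmb4 sets both gave 0.27. Phgdh, the first enzyme of serine synthesis, gave 1.63 ± 0.36 on its dimmer set (0.027) and 0.07 ± 0.23 on the brightest (0.92).

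Fos, a transcription factor made within minutes of a stimulus, was called on the dimmest of its 3 sets. The signals on it were 1560, 1700, 2460, 1260 and 1250 in IPC_TRI and 809, 861, 692, 834 and 1230 in APC_TRI, a difference of 0.87 ± 0.20 (adjusted p = 0.044) with no overlap. The brightest Fos set gave 0.30 ± 0.19 (0.5) and the third 0.12 ± 0.24 (0.87). Cript gave -1.32 ± 0.31 on the called set (0.046) and 0.36 ± 0.17 on the brightest (0.32), with opposite signs. The olfactory receptor gene Or10al7 gave -1.08 ± 0.26 (0.047) and -0.30 ± 0.19 (0.51). The calls of Phgdh, Psmb4, Fos, Cript and Or10al7 ended without 4 to 6 of the trigger arrays, each left out alone.

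**Figure D3:**
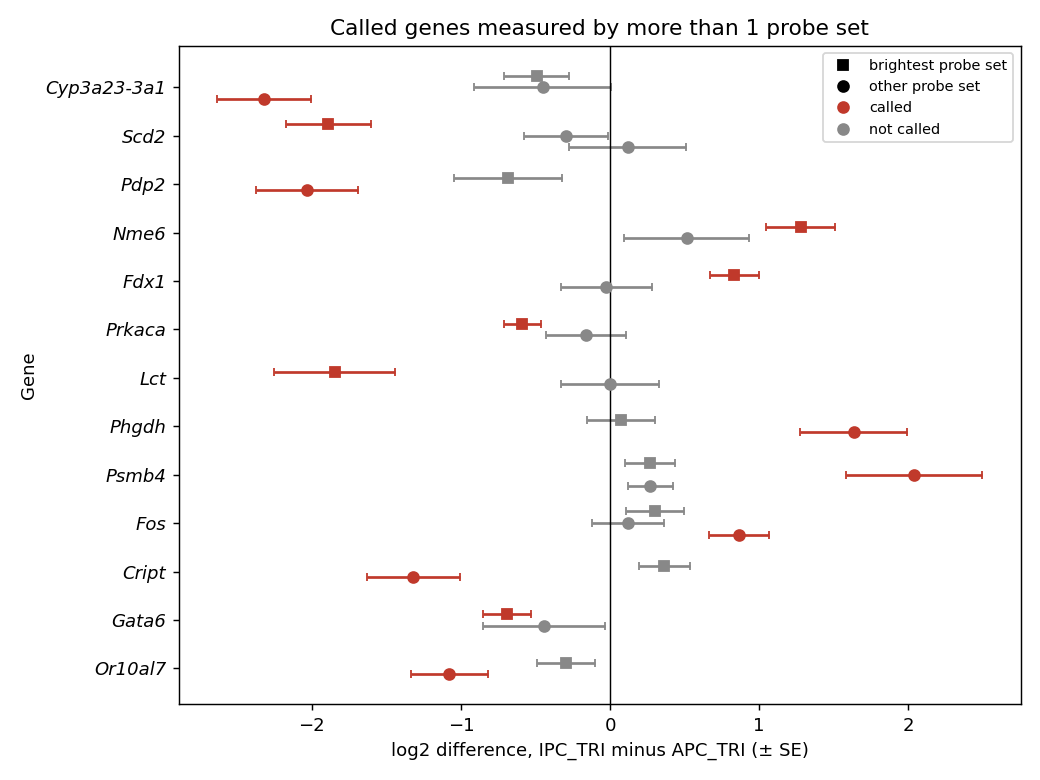
Log2 difference IPC_TRI minus APC_TRI with its standard error for every tested probe set of the 13 called genes that have more than 1; squares mark the brightest set of a gene, circles the others, and red the called sets. No gene has more than 1 red symbol, and for Cript the symbols lie on opposite sides of 0.

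The probe sets with several gene symbols are given by their identifiers. Z27118cds_s_at had signals of 9170, 3730, 8100, 6690 and 6180 in IPC_TRI and 892, 2310, 2020, 1900 and 2730 in APC_TRI, a difference of 1.80 ± 0.31 (adjusted p = 0.0029) with no overlap and with a call without each trigger array in turn. L16764_s_at gave 1.40 ± 0.29 (0.018), and AF034900mRNA_i_at gave -1.04 ± 0.21 (0.016). The unnamed sets rc_AI639067_at and AA956437_at gave -1.45 ± 0.30 and -1.30 ± 0.27 (0.016 for both).

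Gene lists of stress responses, metabolism and signalling were set beside these calls. The lists held 579 tested genes, and 1 of them was called, Scd2. In the list of cholesterol and fatty acid synthesis 1 of 17 members was therefore lower and 0 were higher, and its median difference was -0.04 against -0.02 over all genes. In every other list 0 members were called in either direction, and their values follow as descriptions. Over all 3155 genes 1663 lay below 0 (52.7%), and 457 had an unadjusted p under 0.05 (14.5%), 199 above 0 and 258 below. Probe sets with several symbols, called or not, are counted in no list.

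Among the heat shock proteins and chaperones, which refold damaged proteins, the median was 0.06, with 10 of 18 members above 0 and 4 at an unadjusted p under 0.05, all 4 above 0. Hspa1a, a heat shock protein made under stress, had signals of 7260, 5060, 6870, 5050 and 1510 in IPC_TRI and 1220, 2180, 2390, 2030 and 2710 in APC_TRI. All IPC_TRI arrays but array 5 lay above every APC_TRI array, and the difference was 1.15 ± 0.32 (adjusted p = 0.084). Without IPC_TRI 5 it was 1.55 with an adjusted p of 0.0025, and with array weights 1.41 with 0.044, within a range of 0.0025 to 0.51 over the alternatives.

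The signals of Hspa1a in control hearts ran from 2350 to 10400. Against CTL it differed by -0.10 ± 0.32 in IPC_TRI (adjusted p = 0.86) and was lower in APC_TRI, by -1.25 ± 0.32 (0.012). Dnaja1, a cochaperone of such proteins, showed the same order, with a difference between the triggers of 0.69 ± 0.23 (0.14) and a value of -1.05 ± 0.23 against CTL in APC_TRI (0.0043). Serpinh1, the collagen chaperone, differed by 0.69 ± 0.20 (0.095), with no overlap between 795 to 1560 in IPC_TRI and 528 to 775 in APC_TRI. Hsph1 differed by 0.40 ± 0.18 (0.3) on its brightest set and by -0.05 ± 0.27 (0.96) on the other.

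The immediate early genes, transcribed within minutes of a stimulus, had a median of 0.08, with 21 of 32 members above 0. Of these 32 genes 6 had an unadjusted p under 0.05, 3 in each direction. Ier3 differed by 0.92 ± 0.26 (adjusted p = 0.09) and Ier5 by 0.92 ± 0.31 (0.15), while Nr4a1 differed by -0.52 ± 0.19 (0.18). The other set of Ier5 gave -0.07 ± 0.36 (0.96). Jun differed by 0.00 ± 0.22 and Egr1 by -0.05 ± 0.23, and the signals of Jun ran from 617 to 1420 in IPC_TRI and from 715 to 1340 in APC_TRI. In the list of the endoplasmic reticulum stress response the median was -0.20, with 11 of 16 members below 0. Ddit3, a transcription factor of that response, differed by -0.72 ± 0.22 (0.12) and the chaperone Hspa5 by -0.51 ± 0.17 (0.14).

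Genes of the signalling that preconditioning is known to use had a median of -0.17, with 26 of 35 members below 0, and 5 of the 6 with an unadjusted p under 0.05 were below 0. The list's mean log2 signal was 8.88, 8.71 and 8.62 on IPC_TRI 1, 2 and 5. On IPC_TRI 3 and 4 it was 9.08 and 9.10, within the APC_TRI range of 8.95 to 9.13. The inducible nitric oxide synthase Nos2 differed by -1.18 ± 0.36 (adjusted p = 0.11) on its brightest set and by 1.32 ± 0.53 (0.23) on the other, so the sets disagreed in sign. Slc25a4, which exchanges ADP and ATP across the inner mitochondrial membrane, differed by -0.37 ± 0.13 (0.18). The kinase Mapk8 differed by -0.98, and the channel subunits Kcnj11 and Kcnj8 by -0.10 and 0.09. The mitochondrial uncoupling protein Ucp3 differed by 0.50 ± 0.45 (0.66) on its brightest set and by -0.23 ± 0.43 (0.86) on the other. In the list of channels and receptors on which anaesthetics are known to act, the median was -0.08 over 20 members.

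Lists of energy metabolism lay close to the median of all genes. It was -0.03 for oxidative phosphorylation, where none of 33 members had an unadjusted p under 0.05 and 0 were called by limma after adjustment. The median was -0.04 for glycolysis and glucose use and -0.04 for fatty acid oxidation and lipid handling. Pgam1, an enzyme of glycolysis, differed by -0.67 ± 0.16 (adjusted p = 0.054) on its brightest set. The other Pgam1 sets gave -0.31 ± 0.23 (0.56) and 0.31 ± 0.17 (0.42), so the sets disagreed in sign. The insulin-sensitive glucose transporter Slc2a4 differed by -0.45 ± 0.14 (0.11). Fabp4, a fatty acid carrier of fat cells and small vessels, differed by 1.20 ± 0.34 (0.099), and Cpt1a, which links fatty acids to carnitine for import into mitochondria, by -0.77 ± 0.26 (0.15). Fabp4 was lower than CTL in APC_TRI, by -2.04 ± 0.34 (0.00038), and lay at -0.84 ± 0.34 from CTL in IPC_TRI (0.089).

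The arachidonic acid and prostaglandin list had a median of 0.06. The receptor gene Ptger3 differed by -1.30 ± 0.32 (adjusted p = 0.054), with 30.4 to 191 in IPC_TRI and 228 to 354 in APC_TRI and no overlap. The phospholipase gene Pla2g4a differed by 0.81 ± 0.23 (0.099), with 430 to 804 and 158 to 425 and no overlap, while Ptgs2 differed by -0.09 ± 0.35 (0.94). The apoptosis list had a median of -0.07, with 9 of 15 members below 0 and the highest at 0.37. All 4 of its members with an unadjusted p under 0.05 were below 0. Among them were Bcl2 at -0.89 ± 0.28 (0.12), which blocks cell death, and Bcl2l11 at -0.97 ± 0.31 (0.13) and Casp2 at -0.92 ± 0.30 (0.14), which promote it. The interferon-induced list had a median of -0.17, with 15 of 19 members below 0; against CTL 11 of the 19 were lower in IPC_TRI, where 8.75% of all genes were called lower, and 3 in APC_TRI, where 4.28% were. The mean log2 signal of that list was 9.32 to 9.44 on IPC_TRI 1 to 3 and 10.1 and 10.3 on IPC_TRI 4 and 5, beside 9.43 to 10.5 in APC_TRI and 10.3 to 10.8 in CTL. The beta-actin 3′ to 5′ ratio, a measure of RNA quality, had means of 0.748 ± 0.193 (SD, n = 5) in IPC_TRI, 0.792 ± 0.153 in APC_TRI and 1.07 ± 0.170 in CTL, and its part in the counts against CTL was not tested. The drug metabolism list had a median of -0.21, with 14 of 18 members below 0. Haem oxygenase, Hmox1, differed by 0.09 ± 0.19 (0.87). Other list members were chosen by their p. Of these Rps16 differed by 0.41 ± 0.11 (adjusted p = 0.077) and Rpl23 by 0.39 ± 0.14 (0.18). Rpl17 differed by -0.75 ± 0.24 (0.13), Gpx3 by -0.63 ± 0.21 (0.14) and Slc8a1 by -0.63 ± 0.225 (0.17). P4ha1 differed by 0.64 ± 0.20 (0.11), Atp2a1 by 1.07 ± 0.31 (0.1) and Anxa1 by 0.53 ± 0.19 (0.16). In APC_TRI against CTL Rps16 was lower, by -0.47 (0.0052), and Slc8a1 higher, by 0.94 (0.0087).

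**Figure D4:**
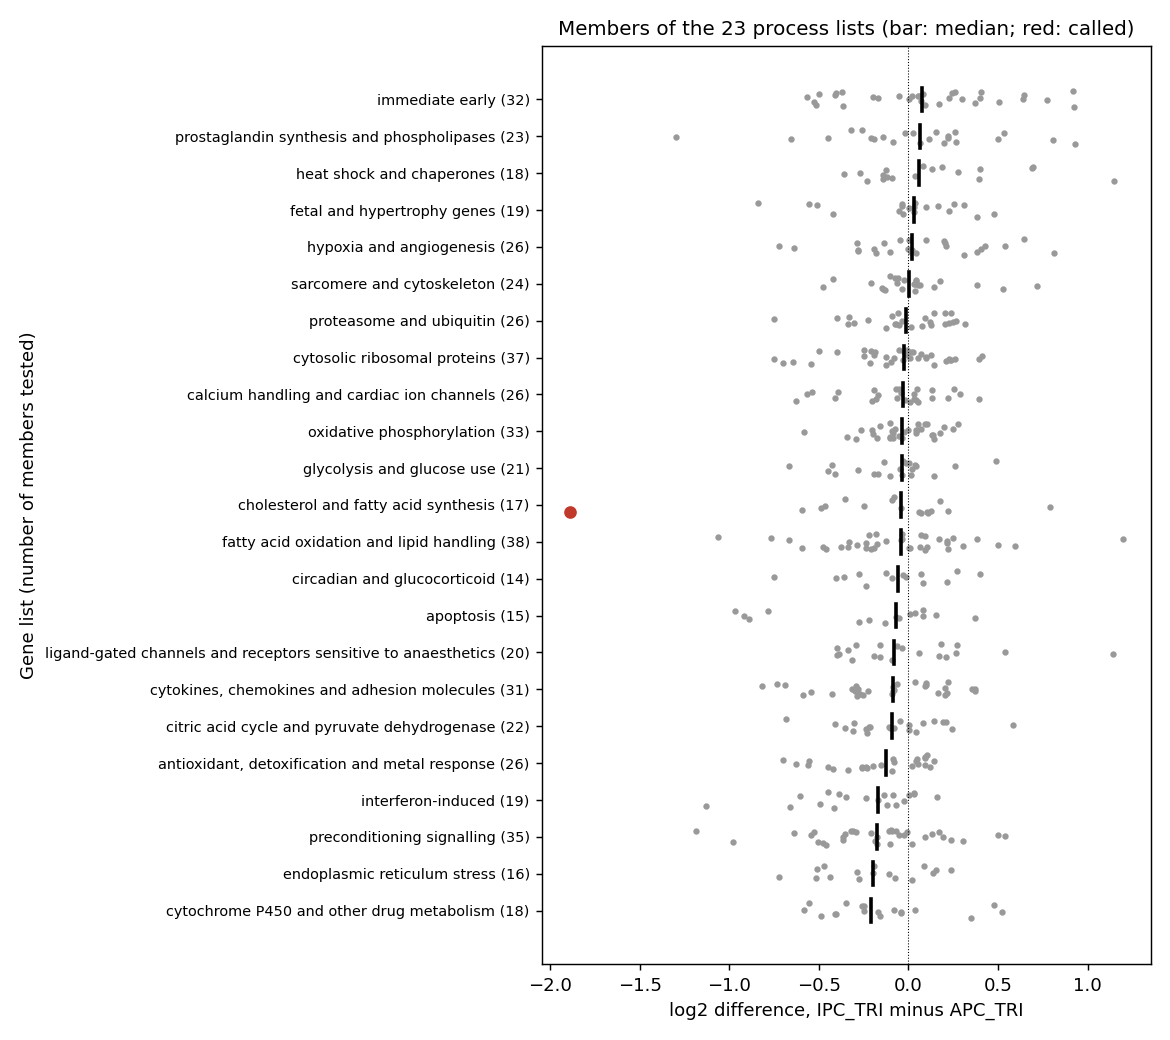
Log2 difference IPC_TRI minus APC_TRI of each tested member of the 23 process lists, with the number of members in brackets and a black bar at the list's median. Every median lies between -0.21 and 0.08, and the only called member, in red, is Scd2 at -1.89.

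Markers of cell types were read in the same way, since in ventricle tissue fewer cells of a type and less RNA per cell cannot be told apart. The label of the tissue was set beside its markers: Myh6, the fast myosin heavy chain of the heart, had means of 30200 ± 2340 (SD, n = 5) in IPC_TRI and 33100 ± 2130 in APC_TRI. Myh6 differed by -0.13 ± 0.11 and Myh7 by -0.03 ± 0.17, and 0 of 10 heart muscle markers were called. The 3 atrial markers tested (Nppa, Myl7 and Myl4) had a mean log2 signal of 11.2 on APC_TRI 3, from 8.44 to 9.0 on the other APC_TRI arrays, and IPC_TRI ran from 8.07 to 9.22. Nppa stood at 8690 on that array and between 1370 and 2210 on the other APC_TRI arrays. Its difference of -0.42 ± 0.36 became 0.03 without APC_TRI 3. Of the 11 called genes, Pnmt, Lct, Tnfsf13 and Gata6 were no longer called without that array, with log2 differences of -1.27, -1.77, -1.18 and -0.71 and adjusted p-values from 0.064 to 0.066. The same calls, and those of Prkaca and Areg, also ended without APC_TRI 4, which lacked the high atrial signal. The part of atrial tissue in the calls was not tested.

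Of 7 smooth muscle and pericyte markers 5 lay below 0, with a median of -0.59 and 0 calls, and the list's mean log2 signal ran from 8.71 to 9.36 in IPC_TRI and from 9.06 to 10.1 in APC_TRI. Myl9 differed by -1.18 ± 0.43 (adjusted p = 0.19), Cnn1 by -0.70 ± 0.28 (0.22) and Acta2 by -0.68 ± 0.34 (0.35). The list was mixed, since 2 members lay above 0, the highest at 0.56. The part of these cells in the called differences was not tested. Of 9 endothelial markers 5 lay above 0 and 4 below, from -0.43 to 0.81. Thbd differed by 0.53 ± 0.16 (0.11) on its brightest set and by -0.46 ± 0.24 (0.38) on the other, so its sets disagreed in sign. The vascular adhesion molecule Vcam1 differed by -0.81 ± 0.26 (0.12) on its brightest set and by -0.14 ± 0.32 on the other. Fibroblast markers had a median of 0.09 over 15 members, and the few blood cell markers tested, 4 myeloid, 5 lymphocyte and 2 red cell, had 0 calls. Of 3 fat cell markers tested, Fabp4 among them, 0 were called between the triggers. Against CTL 2 were lower in APC_TRI, where 4.28% of all genes were called lower, and 0 in IPC_TRI, where 8.75% were. Their mean log2 signal ran from 10.2 to 10.6 in IPC_TRI, from 9.47 to 10.3 in APC_TRI and from 10.5 to 10.8 in CTL.

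Hearts taken through the full protocols had no call between them. In IPC minus APC, which uses none of the trigger arrays, 0 of 5244 probe sets were called by limma (0%), and 137 had an unadjusted p under 0.05. The latter number depends on the pooled spread: it was 272 with these groups alone and 325 with array weights. Between the triggers it was 771 in the main fit, 398 with the groups alone and 510 with array weights. Of the 23 probe sets called between the triggers 7 had the same sign in IPC minus APC and 16 the opposite sign. Their median size was 1.32 between the triggers and 0.18 between the full protocols. The 23 were chosen on the trigger arrays, so a smaller size on other arrays is partly built in, and these values test nothing. The SD of the difference over all probe sets was 0.40 between the triggers and 0.24 between the full protocols. Over all probe sets the 2 sets of differences had a Pearson correlation of -0.024, a description across probe sets of arrays normalised together.

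A test of the difference between those differences called 5 probe sets (0.0953%), all of them among the 23, while 446 had an unadjusted p under 0.05. This test uses the same trigger arrays on which the 23 were called. The sets that represent their genes were those of Scd2 at -1.91 ± 0.40 and Uck2 at 1.69 ± 0.36 (adjusted p = 0.048 for both). Scd2 had means of 203 ± 34.5 (SD, n = 5) in IPC and 200 ± 32.1 in APC, and Uck2 had 212 ± 68.8 and 278 ± 36.1. Nme6 followed at 1.42 ± 0.33 (0.11). The dimmer sets of Cyp3a23-3a1 and Pdp2 gave -2.66 ± 0.44 (0.007) and -2.43 ± 0.48 (0.048), and Z27118cds_s_at gave 2.14 ± 0.44 (0.048). The count of 5 became 1 with no filter on low values, with the values as deposited and with a block for the replicate number, 10 without IPC_TRI 5, and 0 with the arrays of these groups alone.

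Pnmt had differences of the same direction in both settings, of which the one between the full protocols was not called. Its mean was 208 ± 42.4 in IPC and 616 ± 191 in APC, a difference of -1.47 ± 0.28 (adjusted p = 0.07), beside -1.34 ± 0.28 between the triggers, and the difference between those was 0.13 ± 0.40 (0.95). Lct had a difference of -1.05 ± 0.41 between the full protocols, with no call. For Areg the means after the full protocols were 221 ± 54.9 in IPC and 219 ± 104 in APC, a difference of 0.09 ± 0.32, where the triggers had differed by 1.43. Gata6 and Prkaca differed by -0.10 ± 0.16 and -0.25 ± 0.12 between the full protocols. For these genes the test did not call a difference between the settings, and its standard errors ran from 0.17 for Prkaca to 0.57 for Lct.

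**Figure D5:**
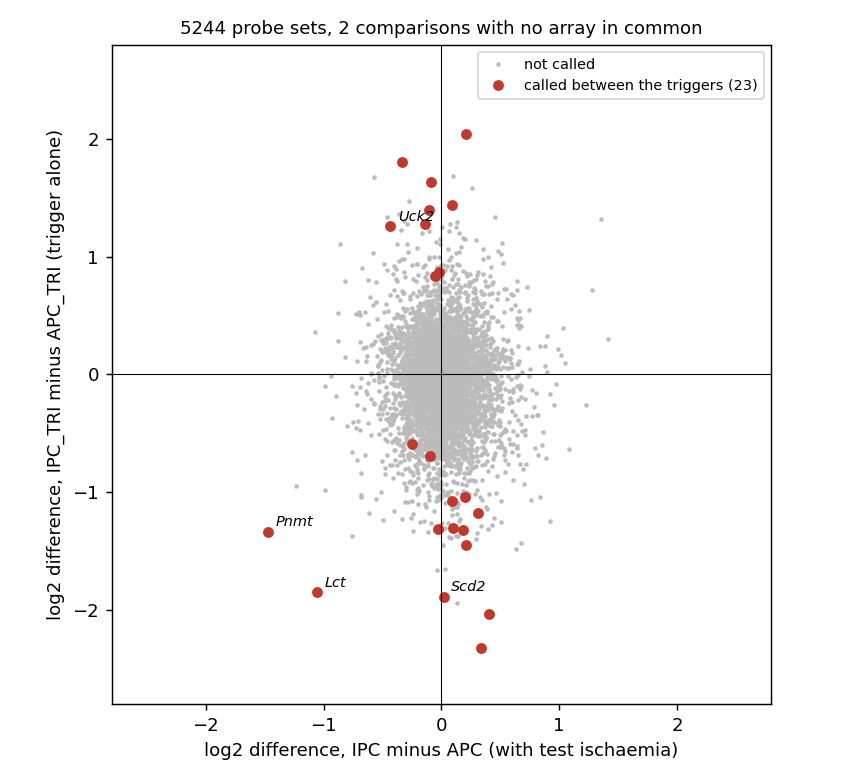
Each point is 1 of the 5244 probe sets, with the log2 difference IPC minus APC (full protocols, with test ischaemia) on the x axis and IPC_TRI minus APC_TRI (trigger alone) on the y axis. The 23 red points called between the triggers spread along the y axis and most lie near 0 on the x axis, with Pnmt at -1.47 and Lct at -1.05 farthest from it.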

How the data were processed

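Total RNA of rat left ventricle was hybridised to 30 Affymetrix arrays, 5 biological replicates in each of 6 groups, per the labels. The limma p-values set a difference between group means against the spread between replicates, pooled over all 6 groups. The authors deposited linear intensity values for each probe set. Their trimmed mean (2%) was 500.8 to 501 on each array and their median, without control sets, 115 to 189, so arrays had been scaled but not quantile normalised. The software that made the intensity values is not given in the sources used here. The number of arrays limits the precision.

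Of 8799 probe sets 59 control sets were left out. A platform annotation gave 1 symbol to 7006 of the others, several to 308 and none to 1426, and a rat gene reference held 6985 of the gene identifiers. Intensities were turned into log2(intensity + 16), quantile normalised, and filtered by dropping the dimmest 40% of probe sets (mean of the 30 arrays). limma 3.58.1 in R 4.3.3 fitted 1 mean per group over all arrays, with variances moderated along a trend, and p-values were adjusted by Benjamini-Hochberg for each contrast. A fold change on this scale understates that of dim probe sets. The fit was tested on simulated data.

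The members, the 35 gene lists and the tests were chosen with earlier results of these data known, the interferon and cholesterol lists among them. The rule named, per direction, up to 12 called genes by size of change, the genes with the smallest p up to 5 where fewer were called, up to 3 members of each list (at most 30 genes), and 12 stress and heart genes in any case. Mapk8, Kcnj11, Kcnj8, Cnn1, Acta2, Myl9, Myl7 and Myl4, and the called probe sets that do not represent their genes, were named after their values were seen.

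Replicate numbers were checked for pairing between the triggers: the correlations of deviations from the group means were 0.03, -0.06, 0.10, -0.09 and 0.03, so the numbers did not pair arrays. Quality measures were compared by 2-sided exact permutation tests. The alternatives changed the pseudocount (1 or 64), the filter (none, or 60% dropped) or the normalisation (as deposited, or centred on medians). Others added a replicate block, array weights or a covariate for the bacterial spikes, fitted the contrast's groups alone, or left out 1 array. Quality measures came from Python 3.11.15 with scipy 1.17.1, pandas 2.3.3 and numpy 2.4.6, and plots from matplotlib 3.10.9.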

Additional observations from a re-analysis of the deposited data

Results flagged for a closer look

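Arrays that stood apart from the other 4 of their group were looked for in 140 sets of 5 values, and 13 were found; chance alone gives about 1 in 20. In IPC_TRI, array 5 was low for Hspa1a at 1510 (others 5050 to 7260), for Egr1 at 2790 (5660 to 6760) and for L16764_s_at at 5770 (13000 to 17800). Array 3 of IPC_TRI was high for the dim set of Cyp3a23-3a1 at 49.4 (6.93 to 13.4). Array 2 of IPC_TRI was high for Casp2 at 382 (82.8 to 107) and in the share of all signal on the brightest 1% of probe sets, 41.4% (35.3 to 36.8). Array 1 was low for Myh7 at 19500 (30100 to 35800).

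In APC_TRI, array 3 was high for Nppa at 8690 (others 1370 to 2210) and for the called set of Psmb4 at 3260 (830 to 887). Array 4 of APC_TRI was high for Scd2 at 509 (309 to 347). Array 5 was low for Nos2 at 180 (298 to 346) and for Slc2a4 at 2830 (3720 to 4130), and array 2 was low for Anxa1 at 250 (388 to 423).

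The difference between the triggers departed from that between the full protocols, by the test of the difference itself, for 5 probe sets: by -2.66 for the dim set of Cyp3a23-3a1, -1.91 for Scd2, -2.43 for the dimmer set of Pdp2, 2.14 for Z27118cds_s_at and 1.69 for Uck2.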

How the results depend on the processing

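The 23 probe sets called between the triggers became 15 with 60% of probe sets left out, 41 with median centring (5 higher and 36 lower), 13 with array weights and 0 with the trigger arrays alone; they were 16 with the values as deposited (9 higher and 7 lower) and 8 to 89 with 1 array left out. Median centring moved the median of all probe sets to -0.14. With the replicate block 28 were called, 20 of them among the 23; 1 of the 5 array pairs correlated best with its own number, and the numbers were not taken as a pairing. The 1 called list member became 3 with median centring or the replicate block, 2 with array weights or the spike covariate, 0 with the trigger arrays alone, and 1 to 7 with 1 array left out. Against CTL, the 869 calls of IPC_TRI became 238 with those groups alone and 394 with array weights (567 to 1077 with 1 array left out), and the 453 of APC_TRI became 821 and 1065 (281 to 476). The 0 calls of IPC minus APC became 1 with 60% of probe sets left out, with the values as deposited or with array weights (0 to 1 with 1 array left out). The 5 calls of the difference between those differences became 2 with a pseudocount of 1, 1 with no filter, the values as deposited or the replicate block, 3 with median centring, 8 with array weights, 0 with its groups alone, and 1 to 10 with 1 array left out. The cause of these moves was not tested, apart from the fewer arrays or probe sets in some fits. Each call among the 11 genes ended with the trigger arrays alone.

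Some uncalled differences changed sign: with the values as deposited Myh6 was 0.034 and Myh7 0.12; with median centring Nppb was -0.065, Hmox1 -0.11 and Jun -0.15; with array weights Egr1 was 0.15 and Myh7 0.041. With 1 array left out Myh7 ran from -0.11 to 0.12, Jun from -0.13 to 0.17, Egr1 from -0.23 to 0.19, Hmox1 from -0.025 to 0.22, Nppa from -0.63 to 0.033 and Ptgs2 from -0.24 to 0.10. Of the quality measures 1 passed the test with all arrays and 1 to 2 with 1 left out. With all arrays this was the mean correlation within the group, whose values are not independent. The mean log2 spike signal differed by 0.07 and the beta-actin 3′ to 5′ ratio by -0.04, and with 1 array left out these ran from -0.11 to 0.22 and from -0.12 to 0.017.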
